A study of Homo sapiens with 12 samples.

Results

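The clustered protocadherins of H1 human embryonic stem cells were described from 4 lists of chromatin immunoprecipitation (ChIP-seq) peaks. H1 is an established embryonic stem cell line. The members were all protein-coding genes on chromosome 5 of the RefSeq table for hg38 whose symbols begin with PCDHA, PCDHB or PCDHG. They numbered 53 of 20033 protein-coding genes, with 15 in the alpha, 16 in the beta and 22 in the gamma cluster. Untreated wild-type cells gave lists for YTHDF1, RNF2 and H2AK119ub, and cells treated with YTHDF1 shRNA gave a second YTHDF1 list, all in mTeSR1 medium. Each list came from 2 replicate libraries that the authors had merged, so no spread between replicates and no test between groups is given. The labels do not say whether the knockdown cells were a pool or a clone. The lists hold no expression values, and the embryonic stem cell label could not be checked against marker genes.

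Clustered protocadherins are cell-surface adhesion proteins, best known for giving single neurons a surface identity by which their own branches recognise and avoid each other. In the alpha and gamma clusters each gene has its own promoter and its own large first exon, which is spliced to constant exons shared by the whole cluster, and the beta genes have no shared constant exons. A neuron switches on a few of the alternate members, a choice tied to the insulator protein CTCF, cohesin and DNA methylation, whereas the 5 C-type members (PCDHAC1, PCDHAC2, PCDHGC3, PCDHGC4 and PCDHGC5) are less subject to that choice. H2AK119ub is histone H2A with a ubiquitin on a lysine of its tail, placed by the Polycomb complex PRC1. RNF2 is an E3 ligase subunit of that complex, though not the only possible one. YTHDF1 is a reader of N6-methyladenosine on RNA.

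The promoters of the alternate members are known for a shared element with the core letters CGCT. The short sequences here show these letters in some members, and the letters alone do not mark the element. RefSeq promoter windows (GRCh38.p14, 250 bases before to 50 after the gene's start) matched 47 of the 53 members, all on the plus strand of chromosome 5. PCDHA3, PCDHA13, PCDHB6, PCDHB11, PCDHGA12 and PCDHGC5 had no entry. CGCT, searched on both strands, was in 46 of the 47 windows and in 81.0% of the 15841 coding-gene windows. Read on the strand of the gene alone, it was in the same number of members, 46, and in 64.9% of coding genes. PCDHA9 was the member without it. Among windows with less than 50% G + C, CGCT on the strand of the gene was in 40 of 41 members and in 23.9% of 2846 coding genes. The lines that follow print 28 bases, 5′ to 3′ on the plus strand, with CGCT in capitals, for members chosen to show the pattern of each cluster and its exceptions.
PCDHA1 (chr5:140786088-140786115): tggccacatgatgtCGCTgtacaccaca
PCDHA6 (chr5:140827899-140827926): gagccgcatgatgtCGCTgtctaccatg
PCDHA8 (chr5:140841132-140841159): aagccacatgatgtCGCTgtctaccaag
PCDHAC2 (chr5:140966367-140966394): gagcagtccgggttCGCTgtccgccact
PCDHB1 (chr5:141051276-141051303): ctggggagttgagtCGCTcaatgcaaat
PCDHB3 (chr5:141100395-141100422): cgaacgcatggtggCGCTgttgactaag
PCDHB7 (chr5:141172568-141172595): aaaacgcaaggtggCGCTgctggctaaa
PCDHB15 (chr5:141245316-141245343): acaacgcatggtggCGCTgcaggctaag
PCDHGA4 (chr5:141354962-141354989): aagactctgggtgtCGCTgttcaccaat
PCDHGA10 (chr5:141412933-141412960): aggactctgagcgcCGCTgttcacctac
PCDHGB4 (chr5:141387619-141387646): ctgactctgggcgcCGCTgttggccaaa
PCDHGC3 (chr5:141475882-141475909): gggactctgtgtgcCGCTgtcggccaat
PCDHGC4 (chr5:141484954-141484981): ctgagcccgggagcCGCTgtctgccaat

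The letters around CGCT differed by cluster. GATGTCGCT, searched on both strands, was in 9 of 13 alpha windows, in 0 beta and gamma windows and in 13 coding genes outside the clusters. GGTGGCGCT was in 13 of 14 beta windows, in 0 alpha and gamma windows and in 91 coding genes outside the clusters. CGCTGTT was in 13 of 20 gamma windows, 1 of 14 beta windows (PCDHB3) and 0 of 13 alpha windows, and in 418 coding genes outside. Of the members printed above, PCDHAC2, PCDHB1, PCDHGC3 and PCDHGC4 had none of these longer runs. The longer runs of letters were chosen after the members' sequences had been read. In 44 members a CGCT on the strand of the gene lay within 100 bases before the start. Its first base was then 11 to 95 bases before the start, with a median of 59, taking the farthest one where a window held several. A match of letters is a description of the sequence and not a binding site.

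Along the clusters, H2AK119ub was patchy in alpha and beta and covered most of the gamma cluster from PCDHGC3 onward. The alpha cluster (chr5:140786140-141012347, 226.2 kb) held 9 H2AK119ub islands over 19.7% of its length, 3 RNF2 peaks over 2.35% and 5 YTHDF1 peaks over 0.677%. The beta cluster (chr5:141051374-141249365, 198.0 kb) held 7 islands over 10.01%, 2 RNF2 peaks over 0.973% and 5 YTHDF1 peaks over 1.05%. In the gamma cluster (chr5:141330514-141512975, 182.5 kb) 16 islands covered 57.5%, 10 RNF2 peaks covered 10.9% and 6 YTHDF1 peaks covered 1.42%. For comparison, islands covered 7.25%, RNF2 peaks 1.99% and YTHDF1 peaks 0.678% of chromosome 5. Those are shares of the whole chromosome, including sequence far from genes. At 10 kb before and after the 5′ ends of coding genes, 25.4% and 25.1% of positions lay under H2AK119ub. For RNF2 the share was 5.21% at either position. Beside these, alpha and beta were lower for both features and gamma was higher. Over the 3 clusters together the shares were 27.9%, 4.49% and 1.02%. The map of the 3 clusters shows these peaks beside the 5′ ends.

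**Figure D1:**
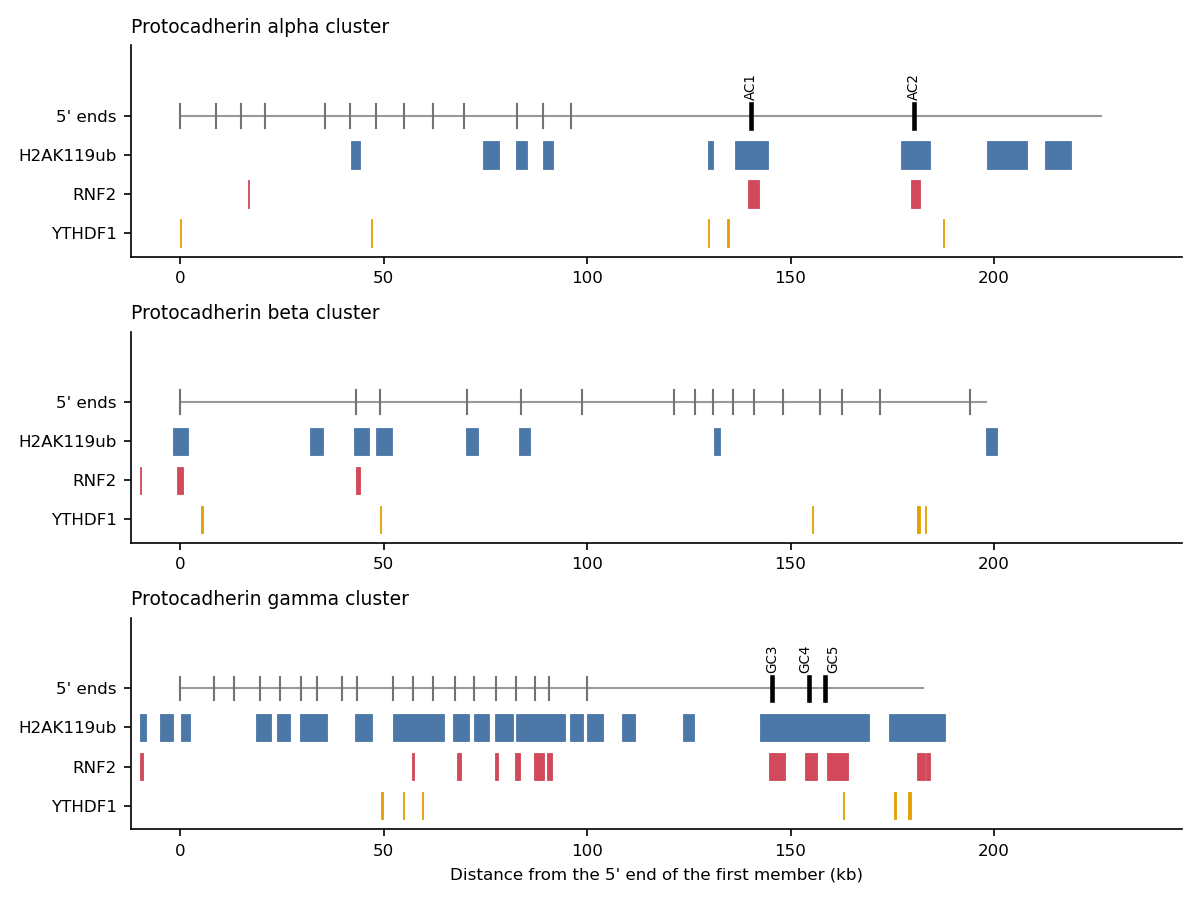
Peaks of wild-type H1 cells along the alpha, beta and gamma clusters. The horizontal axis is the distance in kb from the 5′ end of the first member, ticks in the top row of each panel are the 5′ ends of members (thick black for the named C-type members), and coloured boxes are H2AK119ub islands, RNF2 peaks and YTHDF1 peaks drawn to scale, with 10 kb of flank on either side. Within its span the gamma cluster carries 16 islands, the longest of 26.8 kb over its 3 C-type members, and the beta cluster has 1 island between PCDHB6 and PCDHB15.

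At the 5′ ends, RNF2 and H2AK119ub were found at a smaller share of members than of coding genes as a whole, except for H2AK119ub in the gamma cluster. A member was counted when a peak overlapped the 2 kb on either side of its 5′ end. RNF2 was at 14 of 53 members, whereas it was at 66.6% of the 15841 coding genes with a RefSeq promoter entry. H2AK119ub was at 30 of 53 members, against 74.3% of coding genes. By cluster, H2AK119ub was at 5 of 15 alpha, 6 of 16 beta and 19 of 22 gamma members (86.4%), and RNF2 at 3, 2 and 9, so for H2AK119ub the lower share was that of alpha and beta. YTHDF1 was at 4 of 53 members, against 22.7% of coding genes, and knockdown YTHDF1 was at 0 of 53, against 0.436%. The member shares, with exact (Clopper-Pearson) 95% intervals, were 26.4% (15.3 to 40.3%) for RNF2, 56.6% (42.3 to 70.2%) for H2AK119ub and 7.55% (2.095 to 18.2%) for YTHDF1. The interval of 0 knockdown peaks reached 6.72%. These intervals treat the members as independent draws, yet the 53 are the whole family and neighbouring members share islands. Members are therefore not independent units, the intervals measure no spread between replicates, and no test was made.

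By combination of features, 13 members carried both RNF2 and H2AK119ub, 17 carried H2AK119ub without an RNF2 peak, 1 carried RNF2 alone and 22 carried neither. Among coding genes the corresponding shares were 63.2%, 11.1%, 3.4% and 22.3%. No member carried YTHDF1 together with both PRC1 features, a combination found at 19.0% of coding genes. Of the 30 members with H2AK119ub, 13 also had RNF2, whereas 85.0% of coding genes with H2AK119ub had RNF2. With the better-scoring 50% of its list, RNF2 was left at 9 of 53 members, against 50.8% of coding genes. The handling of reads that match several near-identical members is not given in the sources used here, so a member without a peak is not shown to lack the feature.

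All 5 C-type members carried RNF2 and H2AK119ub, and none carried a YTHDF1 peak at its 5′ end. PCDHAC1 had an RNF2 peak of 4.01-fold enrichment over 2.57 kb (chr5:140925713-140928282), inside an H2AK119ub island of 8.2 kb with a score of 241. PCDHAC2 had an RNF2 peak of 6.29-fold over 2.39 kb (chr5:140965688-140968076), inside an island of 7.2 kb whose score was at the list's cap of 1000. Both alpha C-type islands reached to either side of the start, from 3898 bases before to 4301 bases after the start of PCDHAC1 and from 3275 before to 3924 after that of PCDHAC2.

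PCDHGC3, PCDHGC4 and PCDHGC5 shared 1 island of 26.8 kb (chr5:141473001-141499800), longer than 97.0% of the islands in the list and also at the cap. Within it lay 3 separate RNF2 peaks. That of PCDHGC3 had 7.58-fold enrichment over 3.91 kb, with its summit 74 bases after the start. That of PCDHGC4 had 5.002-fold enrichment over 2.90 kb, with its summit 150 bases after the start. The peak nearest to PCDHGC5 was the strongest of the family at 7.79-fold over 5.16 kb, but it began 478 bases after the start and its summit lay 3669 bases after it. By −log10 p, these 3 peaks were stronger than 89.0%, 82.3% and 91.0% of the RNF2 list, in that order. The authors' fold enrichments, scores and p-values describe single peaks and were used within a list only.

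**Figure D2:**
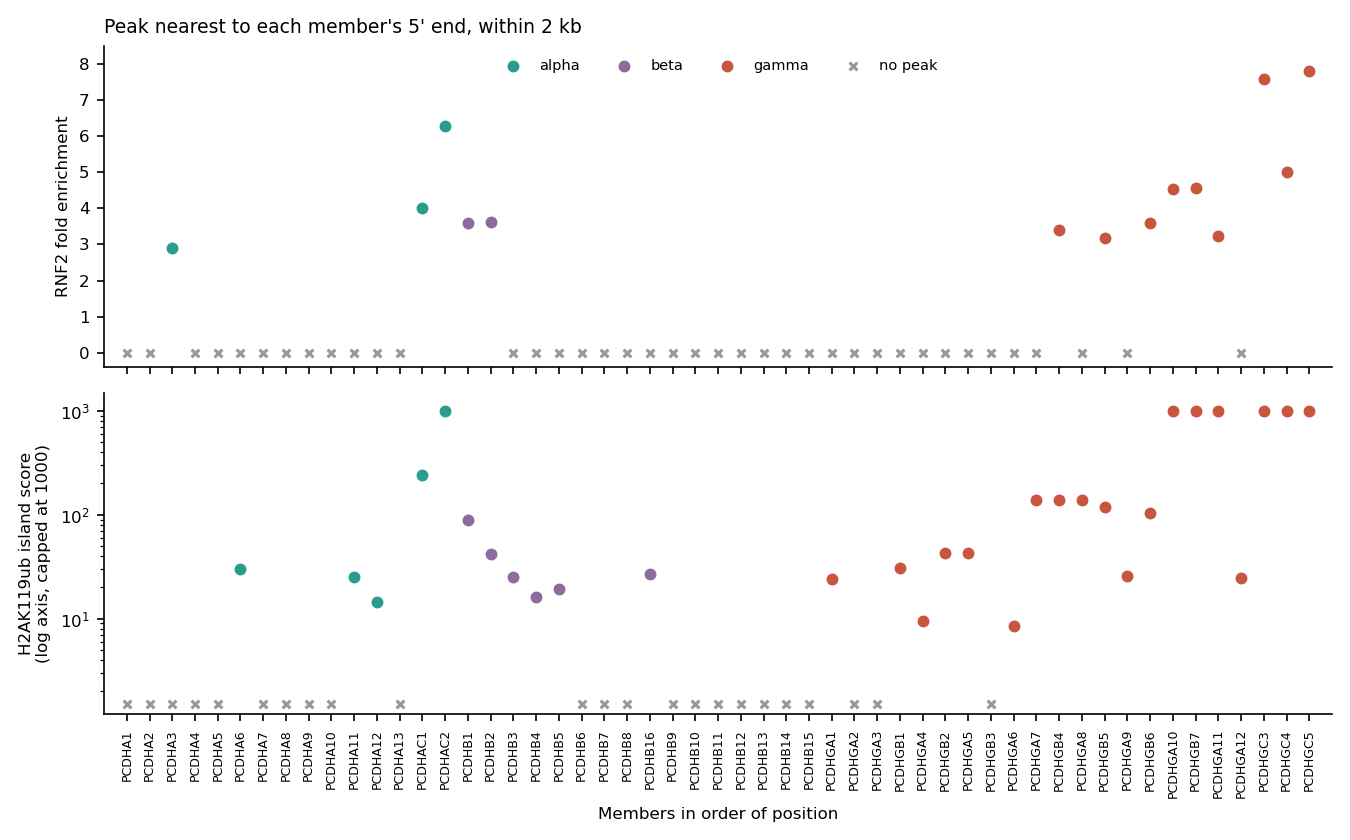
Authors' values of the peak nearest to each member's 5′ end within 2 kb, with members in order of position. The upper panel shows RNF2 fold enrichment, the lower panel the H2AK119ub island score on a log axis capped at 1000, and grey crosses mark members without a peak and carry no value. RNF2 values run from 2.90 at PCDHA3 to 7.79 at PCDHGC5, and 12 of 13 alternate alpha and 14 of 16 beta members have no RNF2 peak.

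Of the 13 alternate alpha members, PCDHA1 to PCDHA13, 9 had neither feature. H2AK119ub lay at 3, PCDHA6, PCDHA11 and PCDHA12, with scores of 30.02, 25.2 and 14.4. An RNF2 peak lay at 1, PCDHA3, with 2.90-fold enrichment over 0.359 kb. It began 1694 bases after the start, and the nearest H2AK119ub island was 26944 bases from that start. PCDHA1 and PCDHA13, the first and last of them, were among the 9. A further island of 3.8 kb (score 28.7) covered the whole of the pseudogene PCDHA14, which lies between PCDHA10 and PCDHA11. Islands also lay in the constant region of the alpha cluster, with 9.8 kb at a score of 5.58 and 6.4 kb at a score of 45.3, and together they covered 48.5% of it with no RNF2 peak.

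In the beta cluster the features were at its 5′ side. PCDHB1 had RNF2 at 3.59-fold and an island of 3.8 kb (score 88.2), and PCDHB2 had RNF2 at 3.62-fold and an island of 3.6 kb (score 42.2). PCDHB3, PCDHB4 and PCDHB5 had islands with scores of 25.4, 16.2 and 19.2 and no RNF2 peak. From PCDHB6 to PCDHB15, the last member, the cluster held 1 island, of 1.4 kb at PCDHB16 (score 27.0), and no RNF2 peak. That stretch was covered by H2AK119ub over 1.41% of 99.3 kb, against 21.1% of the 87.2 kb from PCDHB1 to PCDHB5. The split was drawn after the positions had been seen and has no test.

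Along the gamma cluster, the share of members with RNF2 was higher toward the 3′ end, and the cover of H2AK119ub was uneven. Before PCDHGB4, 7 of 10 members had H2AK119ub and 0 had RNF2, and the islands nearest to their 5′ ends had scores from 8.54 (PCDHGA6) to 138 (PCDHGA7). The PCDHGA7 island, of 12.6 kb, is shared with PCDHGB4 and PCDHGA8 of the next stretch. The next highest score was 42.8, at an island shared by PCDHGB2 and PCDHGA5. The members of this stretch without H2AK119ub were PCDHGA2, PCDHGA3 and PCDHGB3. From PCDHGB4 to PCDHGA12, 9 of 9 had H2AK119ub and 6 had RNF2, and scores ran from 24.6 (PCDHGA12) to the cap of 1000 (PCDHGA10, PCDHGB7 and PCDHGA11, which share a 12.2 kb island). H2AK119ub covered 41.5% of the first stretch, 54.5% of the second and 87.2% of the third. For this cover the second stretch ran from 2 kb before PCDHGB4 to 2 kb before PCDHGC3 (chr5:141385698-141473965), well beyond the PCDHGA12 start. The third ran from there to the end of the cluster. After the PCDHGA12 island, which ended at 141434400, the second stretch held islands of 3.2 and 2.6 kb and the first bases of the C-type island. Its cover thus averages a denser part and a sparser one, whose shares were not computed. These stretches, too, were set after the positions had been seen.

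The 6 RNF2 peaks of the middle stretch each lay nearest to a different member. PCDHGB7 had 4.56-fold enrichment over 2.39 kb and PCDHGA10 had 4.52-fold over 1.15 kb, the largest of these by fold. PCDHGB6, PCDHGB4, PCDHGA11 and PCDHGB5 followed with 3.60, 3.39, 3.23 and 3.18-fold. Of the gamma B members, 4 of 7 had RNF2, all of them from PCDHGB4 onward, and of the gamma A members, 2 of 12. The median RNF2 fold over the 14 members with a peak was 3.81, beside 4.73 over coding genes with a peak. The median H2AK119ub score over the 30 members with an island was 42.8, beside 103.5 (quartiles 36.6 and 1000) over coding genes with an island.

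Islands at alternate members ran into the gene from its start. At 17 members outside the C-type the nearest island was not the nearest one of any other member. These islands began between 1773 bases before and 214 bases after the start, with a median of 346 bases before it, and ended 1613 to 4179 bases after it, with a median of 2701. At PCDHA6, PCDHA11 and PCDHA12 they ended 2440, 2443 and 2492 bases after the start. PCDHA6 itself was covered from 41 bases after its start, and PCDHB16 from 214 bases after. The median length of the 17 islands was 3.6 kb. The island of PCDHB1 reached about as far before the start, 1773 bases, as after it, 2026. Islands shared between members were set aside here, and that of PCDHGA8 began 9832 bases before its start. Exon positions were not used here. The plot of islands by distance from the 5′ end shows the 30 members in order.

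**Figure D3:**
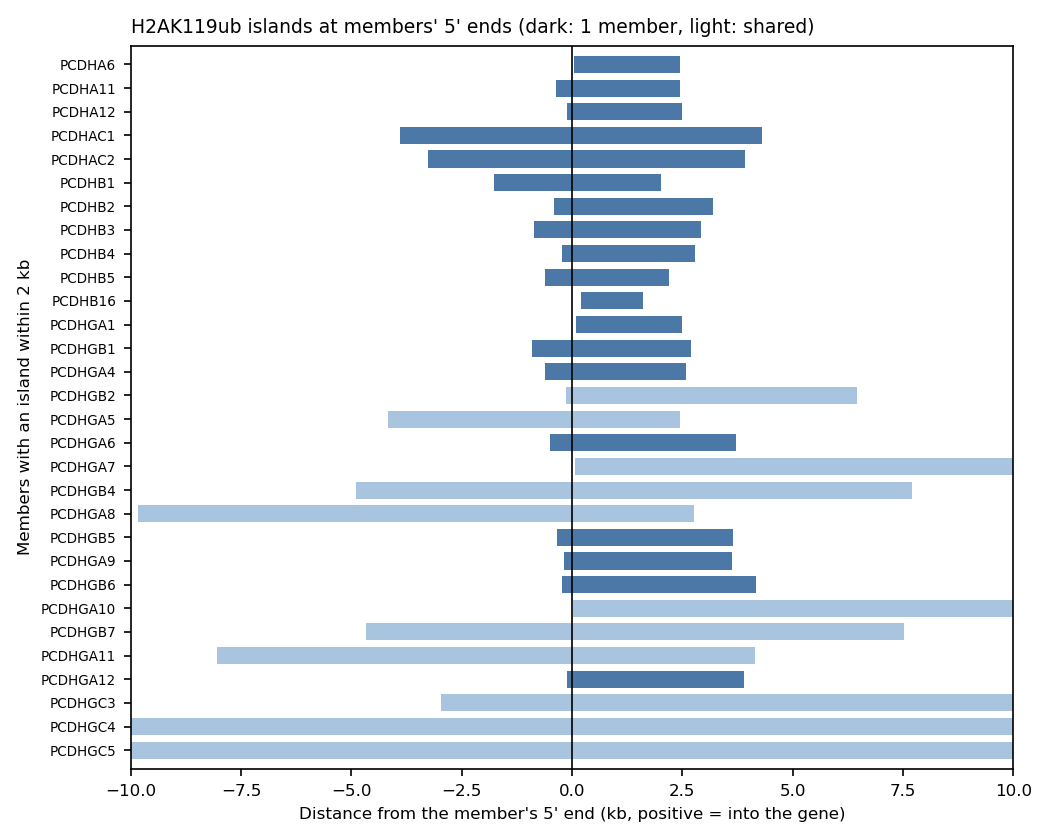
H2AK119ub islands nearest to the 5′ end of the 30 members that have one within 2 kb. The horizontal axis is the distance from the 5′ end in kb, positive into the gene and drawn to 10 kb on either side, with dark bars for islands nearest to 1 member and light bars for islands shared by several. Of the 17 dark bars outside the C-type members, all begin between 1773 bases before and 214 bases after the start.

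The lean of the islands into the gene was measured as the bases under H2AK119ub in the 2 kb after the start and in the 2 kb before it. Of the 25 members outside the C-type with an island, 20 had more covered bases after the start, 0 had more before it and 5 had the same number. Over 11775 coding genes with an island in the window, 25.3% had more covered bases after the start, 19.5% had more before it and 55.2% had the same number, with a median of 2000 covered bases on either side. Of the 5272 coding genes with unequal sides, 56.5% had more after the start, beside 20 of 20 members. Islands at members were shorter, with a median of 4100 bp against 6600 bp at coding genes, and the part of island length in this difference was not tested. For the 25 members the medians were 605 bases before and 2000 bases after. The 5 C-type members were covered over all 2000 bases on each side.

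H2AK119ub covered 12 of 53 members (22.6%) at 1 kb before the start, 25 (47.2%) at the start itself and 30 (56.6%) at 1 kb after it. In coding genes the shares at these positions were 66.2%, 70.3% and 69.1%. RNF2 covered 1 member (1.89%) at 1 kb before, 11 (20.8%) at the start and 8 (15.1%) at 1 kb after, against 27.1%, 63.0% and 33.6% of coding genes. In the gamma cluster H2AK119ub covered 9 of 22 members at 1 kb before and 19 at 1 kb after.

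**Figure D4:**
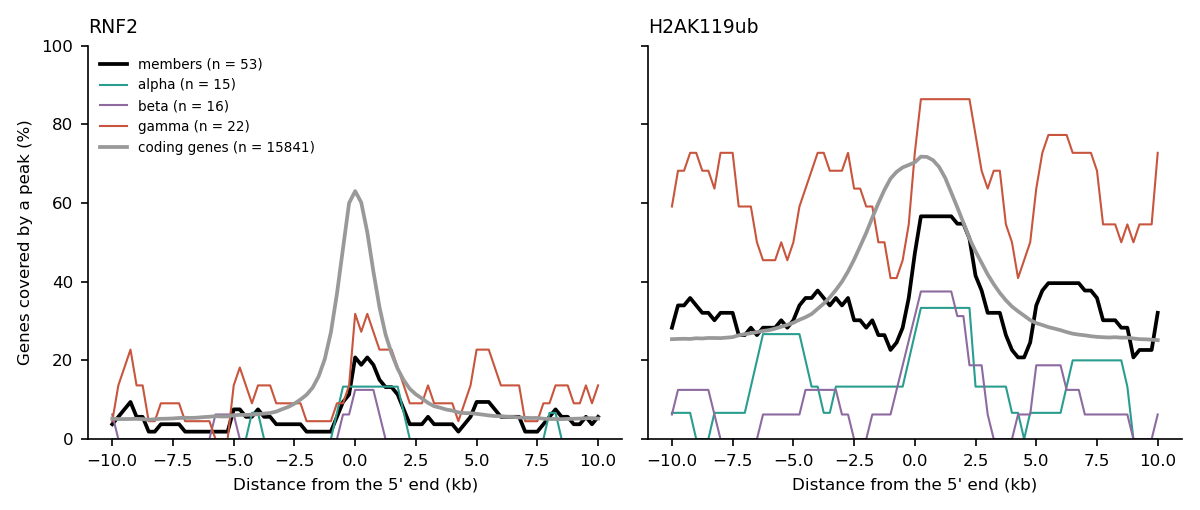
Percent of genes whose position at each distance from the 5′ end is covered by an RNF2 peak (left) or an H2AK119ub island (right), in steps of 0.25 kb and oriented by the direction of the gene. The black line is all 53 members, coloured lines the clusters and the grey line 15841 coding genes. At 1 kb before the start 22.6% of members are under H2AK119ub and at 1 kb after it 56.6%, whereas the coding genes stand at 66.2% and 69.1%.

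Promoter composition was compared between members with and without RNF2. The 12 windows of members with RNF2 and H2AK119ub had a median of 49.0% G + C (38.3 to 66.0%) and 13.5 CG dinucleotides (5 to 27). The 16 with H2AK119ub only had medians of 37.8% and 7, and the 19 with neither had 38.0% and 6. Over all coding genes the medians were 62.7% and 22, and over coding genes with both features 67.0% and 28. The C-type windows stood apart, with 59.0 to 66.0% G + C and 15 to 27 CG dinucleotides in the 4 that had an entry. Those outside the C-type had 32.3 to 51.3% and 2 to 16. Among gamma B members the 4 with RNF2 had 11 to 16 CG dinucleotides and the 3 without it 7 to 10. Among gamma A members the 2 with RNF2 had 5 (PCDHGA10) and 12 (PCDHGA11), and the 9 without it 2 to 7. In the beta cluster the values overlapped, with 6 and 10 in the 2 members with RNF2, 6 to 12 in the 4 with H2AK119ub only and 5 to 10 in the 8 with neither. These are descriptions of few promoters and carry no test.

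**Figure D5:**
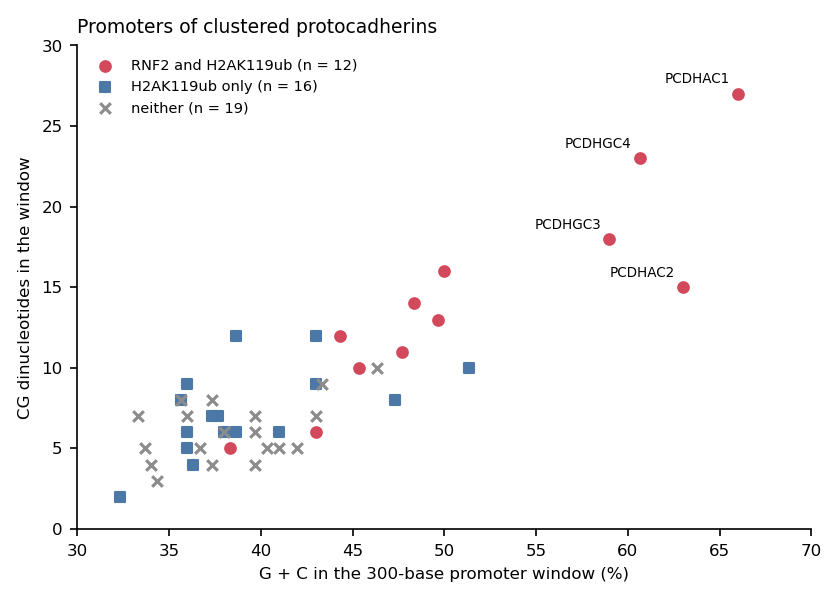
G + C content (horizontal axis, %) and number of CG dinucleotides (vertical axis) in the 300-base RefSeq promoter window of 47 members, 1 point each. Red circles are members with RNF2 and H2AK119ub, blue squares those with H2AK119ub only and grey crosses those with neither. The 4 C-type members with an entry lie at 59.0% G + C or more, and all other members at 51.3% or less.

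The 250 bases before the start of PCDHGC3, PCDHB3 and PCDHA1 are printed to show this range, for a C-type member with RNF2, a member with H2AK119ub and YTHDF1, and a member with YTHDF1 alone. CG dinucleotides are in capitals, the strand is plus, and they number 15, 11 and 3.
PCDHGC3 (chr5:141475716-141475965): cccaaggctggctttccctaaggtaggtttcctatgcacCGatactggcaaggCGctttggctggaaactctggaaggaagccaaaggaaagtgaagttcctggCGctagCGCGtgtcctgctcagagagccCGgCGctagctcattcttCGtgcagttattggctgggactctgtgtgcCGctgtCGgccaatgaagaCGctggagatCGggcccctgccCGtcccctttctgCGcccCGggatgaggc
PCDHB3 (chr5:141100223-141100472): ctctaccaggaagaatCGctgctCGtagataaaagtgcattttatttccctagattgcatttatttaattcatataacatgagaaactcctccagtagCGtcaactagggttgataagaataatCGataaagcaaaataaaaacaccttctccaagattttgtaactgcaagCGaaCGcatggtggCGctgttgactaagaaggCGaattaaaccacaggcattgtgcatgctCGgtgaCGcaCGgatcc
PCDHA1 (chr5:140785890-140786139): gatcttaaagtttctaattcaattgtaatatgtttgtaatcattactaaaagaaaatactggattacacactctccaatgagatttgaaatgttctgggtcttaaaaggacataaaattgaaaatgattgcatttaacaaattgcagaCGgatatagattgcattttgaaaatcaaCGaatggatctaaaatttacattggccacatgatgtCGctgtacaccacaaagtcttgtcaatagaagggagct

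The design set the binding sites of YTHDF1 beside those of RNF2 and H2AK119ub, and the overlaps within the clusters were counted peak by peak. The 3 clusters held 16 wild-type YTHDF1 peaks, with fold enrichments from 2.62 to 3.25 (median 2.81, beside 2.89 for the whole list) and −log10 q from 1.58 to 3.424. Of these, 1 overlapped an RNF2 peak, against 12.7% of the whole list, and 7 overlapped an H2AK119ub island, against 28.3%. The peak on RNF2 lay at chr5:141493404-141493720, with its summit 4530 bases after the start of PCDHGC5, and had 2.95-fold enrichment. The gamma cluster held 5 of the 7 on H2AK119ub, and alpha and beta 1 each. Islands covered 57.5% of gamma and 27.9% of the 3 clusters, against 10.05% of the placed chromosomes. The part of this cover in the overlap was not tested, and 16 peaks are few. From the RNF2 side, 14 of the 15 RNF2 peaks in the clusters overlapped an island, against 85.1% of the whole list. From the side of H2AK119ub, 10 of 32 islands overlapped an RNF2 peak, against 39.9%. With the better-scoring 50% of each list, 7 YTHDF1 peaks were left in the clusters, of which 0 overlapped RNF2 and 3 overlapped H2AK119ub, against 12.4% and 25.7% of all YTHDF1 peaks at that setting.

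Of the 16 YTHDF1 peaks, 12 lay more than 2 kb from any member's 5′ end. The share of the whole list that lies this far from coding-gene 5′ ends was not counted. The 4 members with a peak were PCDHA1, PCDHA7, PCDHB3 and PCDHB12. At PCDHA1 the peak (chr5:140786113-140786440) covered the start with 2.81-fold enrichment and a −log10 q of 1.58, near the list's minimum of 1.502. At PCDHB3 the peak (chr5:141100402-141100734) also covered the start, with 3.09-fold enrichment and a −log10 q of 2.18, and it lay inside the member's H2AK119ub island. Those at PCDHA7 and PCDHB12 ended 965 and 1785 bases before the start, with 2.62 and 2.69-fold. Just outside the limit lay a peak that ended 2083 bases before PCDHGB4, with 2.698-fold. The strongest YTHDF1 peak of the clusters, 3.25-fold at chr5:141379944-141380326, ended 2416 bases before PCDHGA7.

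The lowest −log10 q in the knockdown list was 4.01, and no wild-type YTHDF1 peak of the clusters reached 4, so at that minimum 0 of 53 members had wild-type YTHDF1, beside 2.06% of coding genes. Counted over the whole gene with 2 kb either side, 41 members had a peak, since the RefSeq extents of all alpha members, and likewise of all gamma members, overlap from the last C-type start to the end of the cluster, and a peak in that stretch counts for each of them. The knockdown list held 6 peaks on chromosome 5 and 0 in the clusters, and its nearest peak to a member lay 2320549 bases before the start of PCDHA1. The lists had different minimum −log10 q and unknown depth, so the absence of knockdown peaks here is not a measured loss.

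Of the other coding genes lying inside or within 100 kb of the clusters, 4 had RNF2 and H2AK119ub at the 5′ end. ZMAT2 had neither at its 5′ end. SLC25A2 had no promoter entry and had neither within 2 kb of its lower-coordinate end, which may not be its 5′ end. Among all coding genes 63.2% had both. TAF7, a subunit of the general transcription factor TFIID that lies between beta and gamma, had RNF2 at 4.90-fold and an island of 4.8 kb (score 52.2) at its 5′ end. The divergent histidyl-tRNA synthetase genes HARS1 and HARS2 shared an RNF2 peak of 4.43-fold and an island of 2.8 kb. DIAPH1, a formin that follows gamma and whose 5′ end lies beyond the 100 kb, had RNF2 at 4.33-fold and an island of 3.6 kb. The pseudogenes were also counted at the lower-coordinate end. PCDHGB8P and PCDHGB9P had islands of 3.2 kb with scores of 18.2 and 3.81, and PCDHB18P had 2 YTHDF1 peaks, the nearer of 3.09-fold, and no PRC1 feature. The 3′ end of the gamma cluster, where its constant exons lie, had an island of 13.6 kb (chr5:141504801-141518400, score 245). This island ran past the end of the cluster and overlapped DIAPH1. Within it lay an RNF2 peak of 3.43-fold at chr5:141511658-141513548 and, beyond the cluster, 1 of 3.52-fold at chr5:141513709-141514721. That island held 2 of the 7 YTHDF1 peaks on H2AK119ub, both of 3.09-fold.

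Protocadherins outside the clusters were counted in the same way. Of 12 listed, PCDH10 and PCDH20 had no RefSeq promoter entry. Of the other 10, all had H2AK119ub, 7 had RNF2 and 2 had YTHDF1 at the 5′ end, beside 74.3%, 66.6% and 22.7% of coding genes. PCDH19 and PCDH17, delta protocadherins of the nervous system, had RNF2 peaks of 25.6-fold over 13.7 kb and 23.02-fold over 10.9 kb. PCDH8 and PCDH7 had 14.7-fold over 7.64 kb and 14.3-fold over 9.51 kb. PCDH15, PCDH9 and PCDH11X had 8.64, 4.94 and 3.71-fold, so 5 of the 7 lay above the 7.79-fold of PCDHGC5, the highest among clustered members, and 2 below it. Of 18 classical cadherins listed, 9 had an entry, and 6 of these had RNF2 and 7 H2AK119ub. Of 11 genes known for promoter choice at the clusters, 8 had RNF2, 9 H2AK119ub and 2 YTHDF1, to be read beside the same coding-gene shares. RNF2 reached 16.3-fold over 10.8 kb at SMCHD1, a chromatin protein that silences clustered protocadherins, and 4.24-fold over 2.40 kb at CTCF. These lists are small and their differences from the members were not tested.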

How the data were processed

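ChIP-seq libraries of YTHDF1, RNF2, H2AK119ub and input came from 2 replicates per group, 12 libraries in 6 groups, per the labels. The authors merged replicates and deposited 4 lists, 1 for each antibody and genotype, and depth per library is unknown. The build was hg38, and the submitters' processing notes name SICER 1.1, MACS2 2.1.0, Bowtie2 2.2.5, Trimmomatic 0.35, Picard and SAMtools 1.3.1. Not given in the sources used here are their roles and which of them called each list. The 3 lists in MACS2 layout carry the authors' deposited score, fold enrichment, −log10 p and −log10 q and the summit offset. The H2AK119ub list carries the authors' score alone, on a scale not given, with a highest value of 1000. Its intervals are multiples of 200 bp once each end is read as the last base. Coordinates are 1-based.

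A peak was counted at a gene when it overlapped the 2 kb on either side of its 5′ end by at least 1 bp, and the values given are those of the nearest peak. The 5′ ends came from RefSeq promoter windows of GRCh38.p14 for 47 members and from the gene start for 6. Neighbouring genes without an entry were counted at the lower-coordinate end of the gene, whatever their strand. Coding genes without a promoter entry were left out of the background, which held 15841. Overlaps were computed with Python 3.11.15, numpy 2.4.6 and pandas 2.3.3 and tested on simulated intervals. Members and lists were chosen with earlier results of these data known. Genes were named by rule: the C-type members, the first and last of each cluster, members with YTHDF1, the 3 of each cluster with the highest RNF2 fold, members without RNF2 or H2AK119ub by position and neighbours within 100 kb with a peak. Any other gene named was chosen with its values in view. Alternatives were other windows, midpoints, the better-scoring 50% of peaks, a minimum −log10 q, flanks of 10 kb and merging over 1 kb. Added later were peaks over the 5′ base itself and peaks counted for the nearest member.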

Additional observations from a re-analysis of the deposited data

How the results depend on the processing

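No paired analysis was possible because the replicates of each group were merged into 1 list, so no replicate could be left out either. Knockdown YTHDF1 stayed at 0 members in all 4 settings run, and H2AK119ub stayed within 1.5 times of 30 members, at 24 to 37, in all 5. RNF2 was at 11 to 19 members in 5 settings and at 9 with the better-scoring 50% of the list. YTHDF1 was at 4 members with midpoints, 2 with 500 bp windows, 8 with 5 kb windows, 1 with the better-scoring 50%, 0 at a −log10 q of at least 4 and 41 when the gene body and 2 kb around it were searched. Coding-gene shares were computed for few of these settings. They were 50.8% for RNF2 with the better-scoring 50% and 2.06% for YTHDF1 at the minimum −log10 q. Over the 5′ base itself they were 63.0% for RNF2 and 70.3% for H2AK119ub. At the other settings the difference between members and coding genes was not examined. The percent of the clusters covered was 0.935 for YTHDF1, 4.59 for RNF2 and 27.6 for H2AK119ub with 10 kb flanks, 0.495, 3.50 and 21.1 with the better-scoring 50%, and, after merging over 1 kb, 4.62 for RNF2 and 28.55 for H2AK119ub. With the better-scoring 50% of both lists, 7 of the 16 YTHDF1 peaks were left, of which 0 overlapped RNF2 and 3 overlapped H2AK119ub. Each of these settings uses fewer, wider or merged intervals by construction. Of 63 per-cluster counts, 51 stayed within 1.5 times. These include the knockdown counts, which stay at 0 because that list has no peak in the clusters. The 12 that moved were of YTHDF1, apart from RNF2 in beta with the better-scoring 50% and H2AK119ub in alpha with 5 kb windows. Depth is unknown, so weak YTHDF1 peaks and absent peaks are the least certain values.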
